A study of Mus musculus with 29 samples.

Results

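The genes examined here are 38 genes of blood vessel endothelium and of vessel growth, listed by name and read from 28 mouse lung tumours and 1 normal lung. They hold 10 receptors, 10 junction and surface proteins, 8 secreted ligands and factors, 5 transcription factors, 4 membrane-bound or vascular enzymes and transport proteins, and 1 lymphatic surface receptor. All 38 were on the array, with 66 probe sets that name them and no other gene. Each gene was represented by the probe set with the highest mean signal among those that rose above the 40th percentile of their own array in at least 6 arrays. That left 37 of the 38 genes among the 14602 genes tested; Prox1, a transcription factor of lymphatic endothelium, stayed below this limit with all 3 of its probe sets. Of the 38, 15 are known from textbook biology as genes of lung capillaries or strongly used there, and these are called capillary genes below.

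The tumours came from mice in which a KrasV12 transgene is driven by the tetracycline-responsive TRE promoter, and the transactivator that switches it on, rtTA, is placed in airway epithelium by the CCSP promoter. The recurrences (6 arrays) and the TI-KM primary tumours (14 arrays) carried CCSP-rtTA, TRE-KrasV12 and TRE-Mad2, where Mad2 is a spindle checkpoint protein. The TI-K primary tumours (8 arrays) carried CCSP-rtTA and TRE-KrasV12. The normal lung (1 array) carried CCSP-rtTA alone, so the transactivator was common to every group, and all mice had a mixed 129/Bl6 background. CCSP directs the transactivator to epithelium, so the vessels read here are cells that promoter is not meant to reach. The title of the series concerns relapse after the oncogene is switched off; times and ages were not given in the sources used here. The titles of TI-KM replicates 1 and 2 carry the same number, 76, which may mark a single animal. Nothing in the labels says that the other tumours came from separate animals, so p-values measure the spread between these samples.

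Lung alveoli are wrapped in a dense capillary bed, and its endothelial cells hold together through VE-cadherin (Cdh5), PECAM-1 (Pecam1) and claudin 5 (Cldn5). Their survival and growth depend on VEGF signalling through the receptors encoded by Kdr and Flt1 and on angiopoietin signalling through Tek, while growing vessels use Dll4, Apln and Esm1 at their tips. SOX and ETS transcription factors keep the endothelial programme active.

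Several features of the arrays bear on all values. Every array had a 2% trimmed mean of 500.003 as deposited, and the 3 tumour groups contain sets of arrays that stand apart. The 18S ribosomal control was above 12000 in 4 recurrences and 6 TI-KM primaries (the high-18S set), and 5 TI-K primaries have title numbers above 6000 (the high-number set). The normal lung, at 12569, was also above 12000 but was placed in no set. The other 2 recurrences, 8 TI-KM and 3 TI-K primaries are called the remaining set. The labels do not name these sets as batches. The median signal of an array was 121.7 to 169.8 in the high-18S set and 69.9 to 101.8 in the remaining set. It was 102.9 to 110.7 in the high-number set and 110.6 in the normal lung. The log2 ratio of 3' to 5' signal of the control transcripts, which is higher in more degraded RNA, was 1.32 ± 0.45 in recurrences, 2.16 ± 0.67 in TI-KM primaries, 2.16 ± 0.41 in TI-K primaries (SD) and 2.59 in the normal lung. Fat genes stood out in the normal lung: Ucp1, the gene of the brown fat uncoupling protein, had a signal of at most 42.9 in tumours and 27200 in the normal lung. The summed signal of 8 adipocyte genes was 7421 to 31618 in tumours and 180628 in the normal lung, and the part of such tissue, which has vessels of its own, in the values of the endothelial genes was not tested. Platelet genes summed to 1632 to 14808 in tumours and 17240 in the normal lung, and pericyte and smooth muscle genes to 3797 to 25169 in tumours and 37288 in the normal lung. Summed epithelial genes ran the other way, with 21631 to 88616 in tumours and 8928 in the normal lung. In such bulk samples, fewer endothelial cells and less RNA per endothelial cell cannot be told apart.

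Most endothelial genes had lower signals in the tumours than in the normal lung, and none was called higher. A gene was called where limma's p, adjusted by Benjamini-Hochberg across the whole table, was below 0.05. By that test 9 of 37 members were lower in recurrences, where 6.06% of all genes were called lower. In TI-KM primaries 15 of 37 were lower, against 7.16% of all genes, and in TI-K primaries 11 of 37 were lower, against 6.79% of all genes. No member was called higher in any of the 3 comparisons, while 6.4%, 7.69% and 6.7% of all genes were. The median log2 change of the members was -1.28 in recurrences, -1.50 in TI-KM primaries and -1.31 in TI-K primaries, beside 0.14, 0.10 and 0.00 over all genes. When each array was scaled to a common median, the medians over all genes were 0.17, 0.17 and 0.13. Changes are on the log2(signal + 20) scale, which understates those of dim genes. The comparisons share the single normal lung; with 1 array it has no measured spread, and the fit gave it the spread of the tumours.

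**Figure D1:**
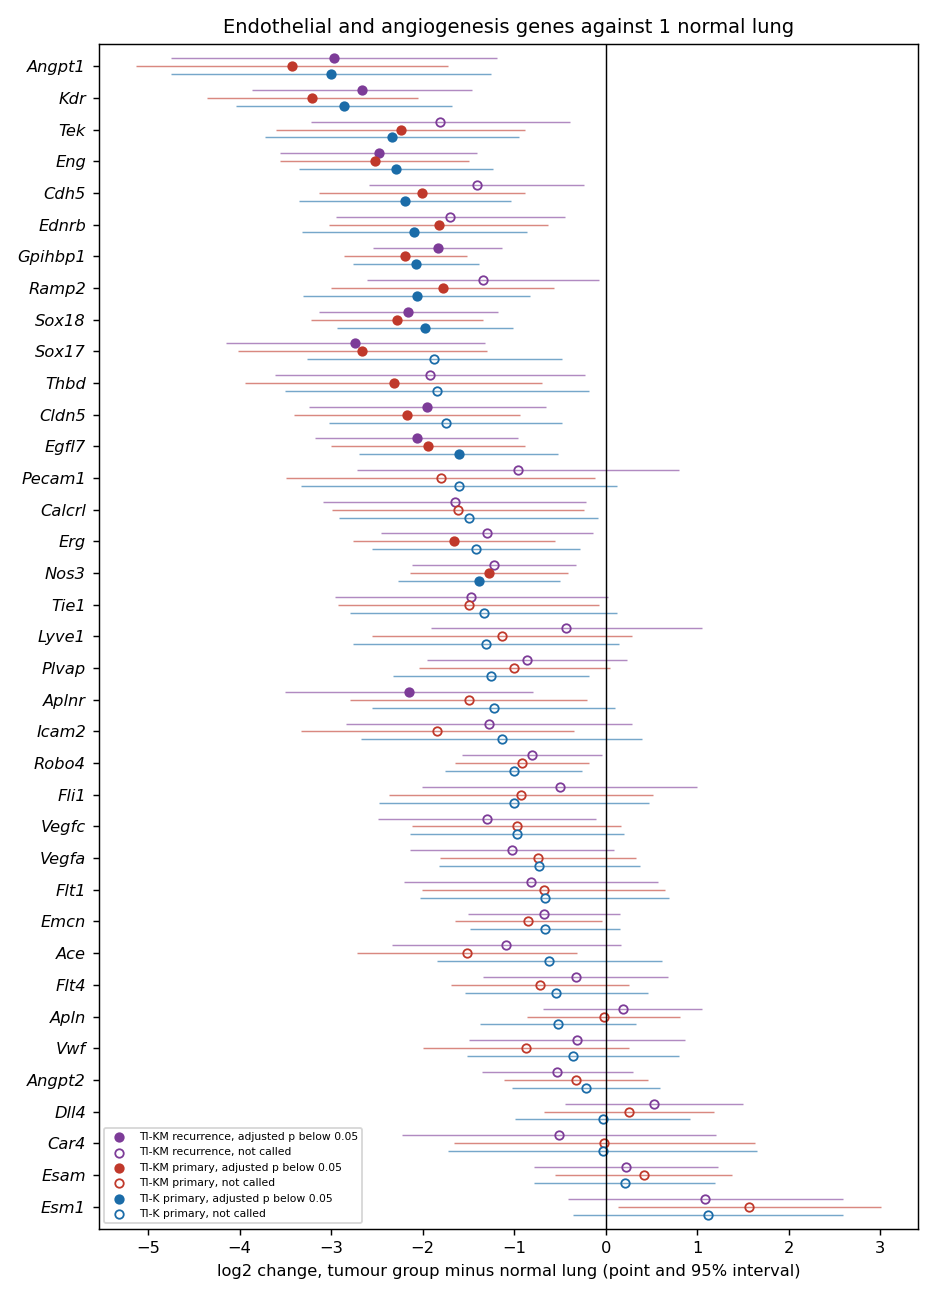
Log2 change of each of 37 genes in recurrences, TI-KM primaries and TI-K primaries against the normal lung, with 95% intervals from limma; filled points have an adjusted p below 0.05. The filled points all lie left of 0, from -1.28 for Nos3 in TI-KM primaries to -3.43 for Angpt1 in TI-KM primaries, and Esm1 lies farthest to the right.

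Without regard to the test, 23 of the 37 members had a lower signal in all 28 tumours than in the normal lung, which held for 12.4% of all genes. No member was higher in all 28, which held for 12.6% of all genes. The 23 include the defining markers Pecam1, Cdh5, Kdr, Tie1 and Cldn5, whereas Emcn was below the normal lung in 27 tumours and Vwf in 22. The summed signal of the 38 genes was 23289 to 57958 in recurrences, 20427 to 40091 in TI-KM primaries and 24605 to 49146 in TI-K primaries, against 85892 in the normal lung. Every tumour sum was thus below that of the normal lung.

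Among the receptors, the VEGF receptor gene Kdr fell furthest. Kdr, whose product VEGFR2 carries most of the growth signal of VEGF in endothelium, had signals of 437, 743 and 1327 (lowest, median and highest) in recurrences, 219, 498 and 742 in TI-KM primaries and 302, 628 and 1098 in TI-K primaries, against 4772 in the normal lung. No tumour came near the normal lung, and the tumour groups overlapped one another. The change in Kdr was -2.66 (SE 0.59, adjusted p = 0.00243) in recurrences, -3.20 (SE 0.56, adjusted p = 0.000161) in TI-KM primaries and -2.86 (SE 0.58, adjusted p = 0.000845) in TI-K primaries, or 6.33-fold, 9.21-fold and 7.25-fold lower. The other VEGF receptors were not called: Flt1, whose product VEGFR1 binds VEGF and limits its access to VEGFR2, had log2 changes of -0.81, -0.68 and -0.67 in recurrences, TI-KM and TI-K primaries. Its other probe sets disagreed, 1 with -1.39, -1.48 and -1.16 and another with 0.61, 0.14 and 0.24. Flt4, the VEGF-C receptor gene of lymphatic endothelium, had -0.33, -0.72 and -0.54, while its second probe set had the opposite sign, 1.02, 0.83 and 0.14. For the representing probe sets, 25 of 28 tumours were below the normal lung for each of these 2 genes.

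Tek, the receptor gene for angiopoietins, had signals of 261, 583 and 1554 in recurrences, 220.5, 530.5 and 783.5 in TI-KM primaries and 168, 464 and 867 in TI-K primaries, against 2277 in the normal lung. It was called lower in TI-KM primaries (log2 change -2.24, SE 0.67, adjusted p = 0.0201) and TI-K primaries (-2.33, SE 0.68, adjusted p = 0.0188), while the recurrences, 1 of which reached 1554, had -1.81 (adjusted p = 0.0873). With the high-18S arrays only, the TI-KM call was lost (-1.86, adjusted p = 0.0668). Its relative Tie1 had dim signals, 10.2, 90.5 and 132 in recurrences, 41.8, 63.3 and 145 in TI-KM primaries and 3.92, 120 and 152 in TI-K primaries, against 232 in the normal lung, and was not called. The adrenomedullin receptor is formed by the products of Calcrl and Ramp2, and Ednrb encodes the endothelin B receptor, in lung a gene of capillary endothelium. Ramp2 was called lower in TI-KM primaries (-1.78, adjusted p = 0.0402) and TI-K primaries (-2.07, SE 0.61, adjusted p = 0.0201), and had -1.34 in recurrences. Calcrl was not called, at -1.65, -1.61 and -1.50 in recurrences, TI-KM and TI-K primaries, with all 28 tumours below the normal lung.

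Ednrb had signals of 234, 440 and 1008 in recurrences, 165, 431 and 804 in TI-KM primaries and 251, 323 and 477 in TI-K primaries, against 1498 in the normal lung. The tumour groups overlapped and the normal lung stood above them all; Ednrb was called lower in TI-KM primaries (-1.83, adjusted p = 0.0327) and TI-K primaries (-2.09, SE 0.60, adjusted p = 0.0171). With the mean of its 3 probe sets the TI-K change was -1.05 and no longer passed. In recurrences, TI-KM and TI-K primaries, 1 other probe set gave -0.33, -0.65 and -0.92 and another gave 0.47, 0.03 and -0.15. Aplnr, the apelin receptor gene, was called lower in recurrences (-2.15, SE 0.66, adjusted p = 0.0292) and had -1.50 and -1.22 in TI-KM and TI-K primaries. Its call was lost with the 3'/5' ratio as a covariate and with the high-18S arrays only. Robo4, a guidance receptor gene of endothelium, had -0.80, -0.91 and -1.005 and was not called.

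Among junction and surface genes endoglin was called lower in all 3 tumour groups and VE-cadherin in both kinds of primary tumour, whereas endomucin and von Willebrand factor were nearer to the normal lung. Eng, whose product presents BMP and TGF-beta ligands to endothelial receptors, had signals of 379, 527 and 1153 in recurrences, 355, 549 and 938 in TI-KM primaries and 295, 709 and 1101 in TI-K primaries, against 3380 in the normal lung. The normal lung was far above all 28 tumours, and the change was -2.48 (SE 0.53, adjusted p = 0.00161), -2.52 (SE 0.50, adjusted p = 0.000665) and -2.29 (SE 0.52, adjusted p = 0.00244) in recurrences, TI-KM and TI-K primaries. A second probe set for Eng gave -1.77, -1.71 and -1.54. Cdh5, the VE-cadherin gene, had signals of 302, 473 and 853 in recurrences, 155, 290.3 and 715 in TI-KM primaries and 174, 283 and 424 in TI-K primaries, against 1324 in the normal lung. It was called lower in TI-KM primaries (-2.01, SE 0.55, adjusted p = 0.0116) and TI-K primaries (-2.19, SE 0.57, adjusted p = 0.00772), and had -1.41 in recurrences (adjusted p = 0.109). The recurrences were called lower too within the remaining arrays (-1.75, adjusted p = 0.00406) and when arrays were scaled to a common median (-1.38, adjusted p = 0.0449). The remaining arrays held only 2 recurrences. Averaged with its second, dim probe set, Cdh5 had -0.95 in TI-KM and -1.41 in TI-K primaries and was not called.

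Pecam1, the CD31 gene, was measured by 1 dim probe set, with signals of 32.1, 161 and 233 in recurrences, 16.6, 63.8 and 169 in TI-KM primaries and 15.9, 114 and 153 in TI-K primaries, against 262 in the normal lung. All 28 tumours were below the normal lung but the spread was wide, and the changes of -0.96, -1.80 and -1.60 did not pass (adjusted p = 0.526, 0.157 and 0.235). Within the remaining arrays, Pecam1 was called lower in TI-KM primaries (-1.96) and TI-K primaries (-2.80). Cldn5, the tight junction gene of endothelium, was called lower in recurrences (-1.95, SE 0.63, adjusted p = 0.0396) and TI-KM primaries (-2.17, SE 0.61, adjusted p = 0.0132), with -1.75 in TI-K primaries (adjusted p = 0.0589). Its call in recurrences was lost without recurrence 2, 3 or 6, with values of -1.82, -1.76 and -1.81. It was also lost with arrays scaled to a common median (-1.92), with the 3'/5' ratio as a covariate (-1.88), within the remaining arrays (-1.75) and with those 2 groups fitted alone (-1.95, adjusted p = 0.229). Thbd, the gene of the anticoagulant surface protein thrombomodulin, was called lower in TI-KM primaries (-2.32, adjusted p = 0.046), and had -1.92 in recurrences and -1.84 in TI-K primaries.

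Vwf, which encodes the clotting factor stored in endothelial granules and in platelets, had signals of 1826, 3835 and 4675 in recurrences, 943, 2273 and 5403 in TI-KM primaries and 1482, 3278 and 4945 in TI-K primaries, against 4207 in the normal lung. The normal lung lay inside the range of each tumour group, and the changes of -0.31, -0.87 and -0.36 were not called. Emcn, a sialomucin gene of capillaries and veins, had signals of 165, 263 and 324 in recurrences, 165, 193 and 421 in TI-KM primaries and 144, 237 and 342 in TI-K primaries, against 408 in the normal lung. Its changes of -0.67, -0.84 and -0.67 were not called. Esam, an adhesion molecule gene of endothelium and platelets, had 0.22, 0.41 and 0.21, and only 8 of 28 tumours were below the normal lung. Icam2 (-1.28, -1.84 and -1.14) and Plvap (-0.86, -0.999 and -1.26), the gene of the diaphragm protein of endothelial fenestrae, were not called.

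**Figure D2:**
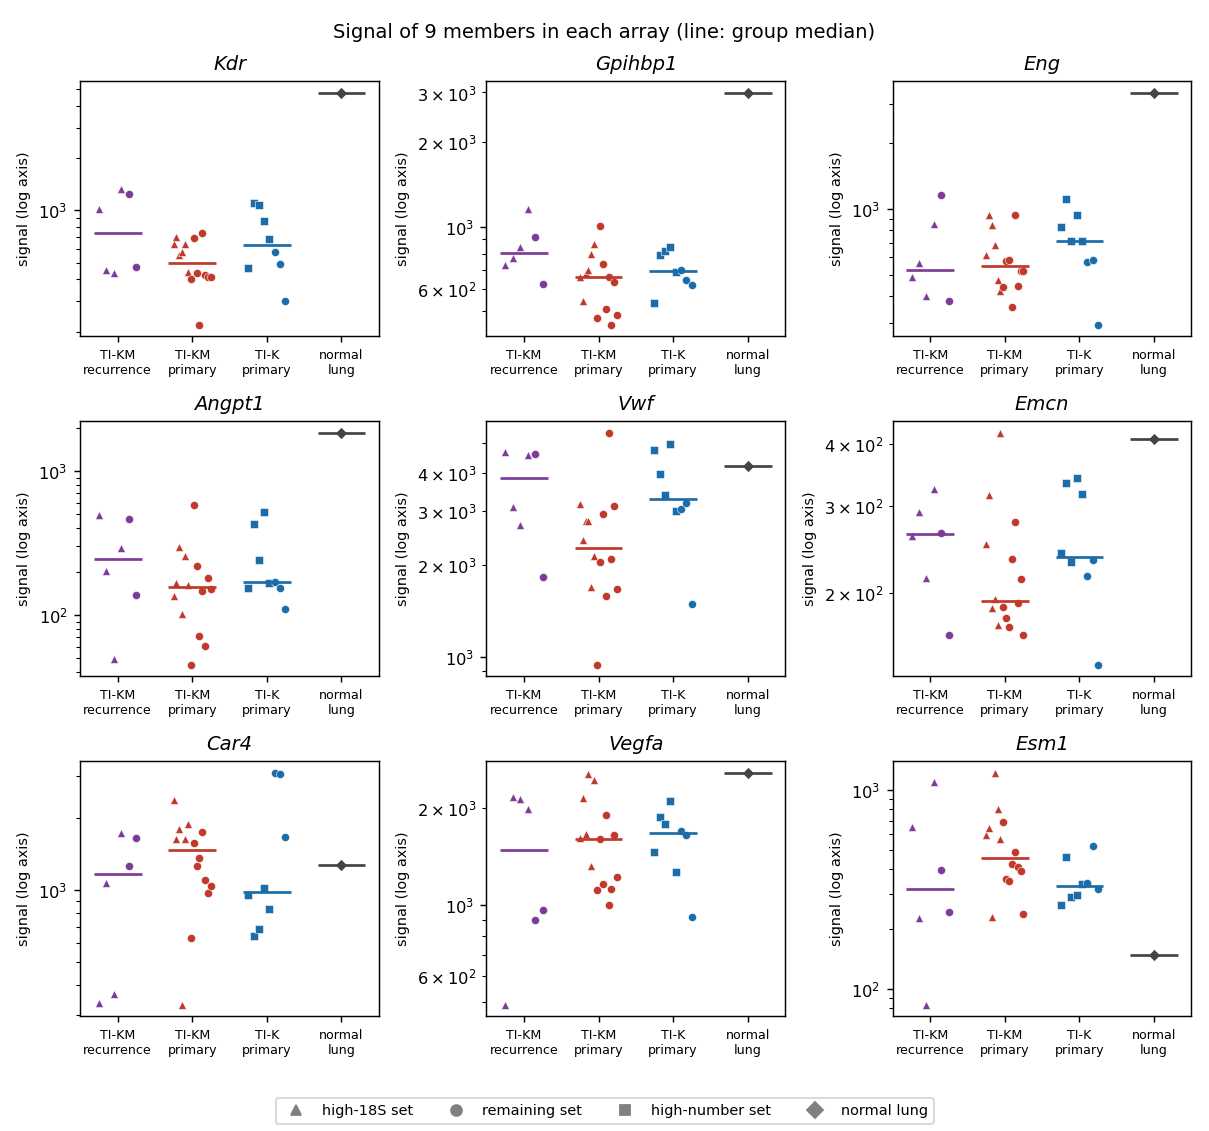
Signal of 9 genes in every array (log axis), by group, with the group median as a line and the set of arrays as the symbol. For Kdr, Gpihbp1, Eng and Angpt1 all 28 tumours lie below the normal lung, for Vwf and Car4 the normal lung lies among the tumours, and for Esm1 27 of 28 tumours lie above it.

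Of the enzymes and transport proteins of the capillary surface, Gpihbp1 had the smallest p-value of all members in each comparison with the normal lung. Its product anchors lipoprotein lipase to the capillary wall. Gpihbp1 had signals of 622, 806 and 1155 in recurrences, 448, 661 and 1003 in TI-KM primaries and 534, 696 and 847 in TI-K primaries, against 2996 in the normal lung. The tumours formed a narrow band well below the normal lung, with changes of -1.84 (SE 0.34, adjusted p = 0.000416), -2.19 (SE 0.33, adjusted p = 1.97e-05) and -2.07 (SE 0.34, adjusted p = 6.49e-05) in recurrences, TI-KM and TI-K primaries, or 3.57-fold, 4.56-fold and 4.20-fold lower. Lipoprotein lipase handling is also a feature of fat, and the part of the fat genes' source in this difference was not tested. Nos3, the endothelial nitric oxide synthase gene, was called lower in TI-KM primaries (-1.28, SE 0.42, adjusted p = 0.038) and TI-K primaries (-1.39, SE 0.43, adjusted p = 0.0289) and had -1.22 in recurrences.

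Car4, the membrane carbonic anhydrase gene of lung capillaries, had signals of 337, 1166 and 1739 in recurrences, 331, 1475 and 2391 in TI-KM primaries and 643.5, 985 and 3112 in TI-K primaries, against 1275 in the normal lung. The normal lung lay in the middle of the tumours, with 15 of 28 below it, and the changes were -0.51, -0.02 and -0.03. The 95% intervals were wide (-2.23 to 1.21 in recurrences, -1.66 to 1.63 in TI-KM primaries, -1.72 to 1.65 in TI-K primaries), so a fall as large as that of Nos3 is within them. Among TI-K primaries the 5 high-number arrays, 643.5 to 1016, were below the normal lung. The 3 remaining arrays, 1664 to 3112, were above it. The probe set used for Car4 may match other transcripts. Its second probe set gave -0.16, 0.32 and 0.53 in recurrences, TI-KM and TI-K primaries. Ace, the angiotensin-converting enzyme gene, is described with the differences between tumours.

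All 4 transcription factor genes tested had lower estimates in each tumour group, and Sox18 passed the test in all 3. Sox18, a SOX gene of vessel development, had signals of 299, 576 and 1291 in recurrences, 401, 542 and 944 in TI-KM primaries and 520.5, 680 and 1043 in TI-K primaries, against 2812 in the normal lung. All tumours were below the normal lung, and Sox18 fell by 2.16 (SE 0.48, adjusted p = 0.00257), 2.28 (SE 0.46, adjusted p = 0.00073) and 1.98 (SE 0.47, adjusted p = 0.00406) on the log2 scale in recurrences, TI-KM and TI-K primaries; the TI-K call was lost when arrays were scaled to a common median (-1.84). Sox17, its relative in arterial endothelium, was also counted among the capillary genes. Sox17 had signals of 384, 808 and 1707 in recurrences, 461, 946 and 1835 in TI-KM primaries and 768, 1823 and 2600 in TI-K primaries, against 5784 in the normal lung. It was called lower in recurrences (-2.73, SE 0.69, adjusted p = 0.00794) and TI-KM primaries (-2.66, SE 0.67, adjusted p = 0.00557), but not in TI-K primaries (-1.87, adjusted p = 0.0657). These values come from a probe set that may match other transcripts; the other probe set gave -1.19 and -1.40 and was not called. The ETS genes Erg and Fli1 had -1.29 and -0.50 in recurrences, -1.66 and -0.92 in TI-KM primaries and -1.42 and -1.004 in TI-K primaries, of which Erg in TI-KM primaries was called (SE 0.54, adjusted p = 0.0364).

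ETS factors bind DNA around the core GGAA, and the promoters of the members were searched for this reason. RefSeq promoters (assembly GRCm38.p6) were at hand for 21 of the 38 genes, some with several listed starts. The 250 bases before each listed start were read on both strands for the letters CCGGAAGT and ACAGGAAG, which share the run GGAAG and were counted separately. With the first listed promoter of each gene, the run CCGGAAGT was in 0 of 21 members and in 2.93% of 27025 genes, and the run ACAGGAAG was in 3 of 21 members and in 2.79% of the genes. Over all listed promoters, CCGGAAGT was in 0 of 28 of the members and 2.88% of all 32851, and ACAGGAAG in 4 of 28 and 2.90%. The 4 belong to 3 genes, since Egfl7 has 3 listed promoters, of which the first 2 hold the run. The first of each gene is shown because these members had unlike values: Egfl7 fell in all 3 tumour groups, Calcrl was below the normal lung in all 28 tumours without being called, and Emcn was among the genes kept. Capitals mark the run, which in Emcn is on the opposite strand. The sequences run 5′ to 3′ along the gene's strand, and each ends at the base before the start listed for that promoter. For Calcrl and Emcn that start lies inside the annotated gene, so their windows hold some of its first bases. The run in Calcrl is among those bases, while that in Emcn is before the gene. Some other windows, such as those of Kdr, Flt1 and Ednrb, lie wholly inside the annotated gene. The counts are thus of windows before listed starts, and not all of these are upstream of the gene.
Egfl7, chr2:26580833-26581082, plus strand, run starting 91 bases before the listed start: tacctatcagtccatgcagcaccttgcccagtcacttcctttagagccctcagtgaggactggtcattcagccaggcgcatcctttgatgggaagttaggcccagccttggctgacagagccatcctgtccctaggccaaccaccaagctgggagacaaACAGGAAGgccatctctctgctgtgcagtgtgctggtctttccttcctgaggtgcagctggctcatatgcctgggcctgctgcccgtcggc
Calcrl, chr2:84425267-84425516, minus strand, run starting 68 bases before the listed start: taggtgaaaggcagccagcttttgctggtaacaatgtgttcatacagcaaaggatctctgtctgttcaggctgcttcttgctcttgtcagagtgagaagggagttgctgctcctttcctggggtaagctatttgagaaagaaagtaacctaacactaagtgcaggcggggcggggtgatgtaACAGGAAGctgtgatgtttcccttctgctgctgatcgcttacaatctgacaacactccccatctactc
Emcn, chr3:137340828-137341077, plus strand, run starting 174 bases before the listed start: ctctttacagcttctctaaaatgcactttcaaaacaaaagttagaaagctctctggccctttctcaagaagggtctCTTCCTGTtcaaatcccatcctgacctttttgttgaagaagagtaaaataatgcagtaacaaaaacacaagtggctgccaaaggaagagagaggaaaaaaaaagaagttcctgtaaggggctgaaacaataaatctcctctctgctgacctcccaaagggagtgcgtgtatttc
A match is a run of letters and not a site of binding, and a promoter without one has only been found to lack these letters in this window.

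Among the secreted factors, Angpt1 and Egfl7 fell, while the ligands of sprouting vessels were not called. Angpt1, the Tek ligand gene made mainly by pericytes and other mesenchymal cells, had signals of 49.7, 246 and 491 in recurrences, 45.2, 157 and 584 in TI-KM primaries and 111, 168 and 516 in TI-K primaries, against 1847 in the normal lung. Its changes were -2.97 (SE 0.87, adjusted p = 0.022), -3.43 (SE 0.83, adjusted p = 0.00444) and -3.00 (SE 0.86, adjusted p = 0.0162), or 7.82-fold, 10.8-fold and 8.004-fold lower in recurrences, TI-KM and TI-K primaries. The call in recurrences was lost within the remaining arrays (-2.76). Angpt2, the gene of a ligand that counters Angpt1 at the Tek receptor, had -0.53, -0.33 and -0.22 and was not called. Egfl7, a secreted endothelial factor gene that hosts miR-126, had signals of 269.5, 692.5 and 1420 in recurrences, 493.2, 682 and 1135 in TI-KM primaries and 489, 872.5 and 1376 in TI-K primaries, against 2809 in the normal lung. It fell by 2.07 (SE 0.54, adjusted p = 0.0101), 1.94 (SE 0.52, adjusted p = 0.00951) and 1.61 (SE 0.53, adjusted p = 0.0408) on the log2 scale in recurrences, TI-KM and TI-K primaries, and was not called with the high-18S arrays only (-2.06 in recurrences, -1.77 in TI-KM primaries). The probe set used for Egfl7 may match other transcripts. In the same group order, its other probe sets gave -0.72, -1.06 and -1.18, then -2.30, -1.86 and -1.55, and last -2.06, -1.47 and -0.84.

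Vegfa, the main growth factor gene for endothelium and one that epithelium makes, had signals of 490, 1474 and 2167 in recurrences, 997, 1601 and 2540 in TI-KM primaries and 917, 1669 and 2101 in TI-K primaries, against 2573 in the normal lung. All 28 tumours were below the normal lung, the nearest at 2540, and the changes of -1.02 (adjusted p = 0.239), -0.74 (adjusted p = 0.406) and -0.73 (adjusted p = 0.437) did not pass. Within the remaining arrays, which held only 2 recurrences, the recurrences had -1.45 and were called. Vegfc, the lymphatic growth factor gene, had -1.30, -0.97 and -0.97. Esm1, the endocan gene of tip cells, went the other way: it had signals of 83.2, 319 and 1089 in recurrences, 230.5, 455 and 1222 in TI-KM primaries and 265, 327 and 525 in TI-K primaries, against 149 in the normal lung. In 27 of 28 tumours it was above the normal lung, and the changes of 1.08, 1.57 and 1.11 were not called (adjusted p = 0.376, 0.146 and 0.356); within the remaining arrays TI-KM primaries had 1.32 and were called. Dll4 (0.53, 0.25 and -0.03), the Notch ligand gene of tip cells, and Apln (0.19, -0.02 and -0.52), the apelin gene, were not called.

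Lymphatic endothelium was represented by Lyve1, a hyaluronan receptor gene also used by some macrophages, by Flt4 and by Prox1. Lyve1 had signals of 760, 1265 and 2163 in recurrences, 318.5, 750 and 2057 in TI-KM primaries and 348.5, 613 and 1776 in TI-K primaries, against 1804 in the normal lung, and its changes of -0.43, -1.13 and -1.31 were not called. Prox1 had dim signals, at most 37.84 in recurrences, 38.01 in TI-KM primaries and 47.0 in TI-K primaries, against 34.4 in the normal lung, and was not tested. Of 5 other lymphatic genes measured, 0 were called in any of the 3 comparisons with the normal lung. Of all genes, 12.5%, 14.9% and 13.5% were called in either direction in recurrences, TI-KM and TI-K primaries.

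The members were then divided by a fixed rule into those called lower in all 3 comparisons and those kept, meaning not called and with a log2 change under 1 in size in all 3. The genes that fell were 6: Kdr, Eng, Egfl7, Gpihbp1, Sox18 and Angpt1, where 4.54% of all genes met the rule. The genes kept were 9: Flt1, Flt4, Emcn, Vwf, Esam, Car4, Apln, Angpt2 and Dll4, where 60.1% of all genes met the rule. The other 22 tested members were mixed. Flt1 would not be kept by the probe set that gave -1.39, -1.48 and -1.16, nor Flt4 by the one that gave 1.02, 0.83 and 0.14. In the same group order, the second probe set of Dll4 gave -0.10, -0.32 and -0.55, and that of Car4 -0.16, 0.32 and 0.53. These are under 1 in size, but in some groups their sign was opposite to that of the probe set used. Being kept is the absence of a call and of a large estimate, and the intervals shown for Car4 allow changes in either direction.

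Among the 15 capillary genes, 9 were called lower in at least 1 comparison and 6 in none, beside 9.05% of all genes called lower in at least 1. Kdr and Gpihbp1 were called in all 3. Cldn5, Sox17, Nos3, Ramp2 and Ednrb were called in 2, and Aplnr and Thbd in 1. Emcn, Ace, Icam2, Plvap, Calcrl and Car4 were called in none, and of these Emcn and Car4 were kept. Per group, 5 of the 15 were lower in recurrences, 8 in TI-KM primaries and 5 in TI-K primaries, with medians of -1.65, -1.78 and -1.50. The 22 other members tested had 4, 7 and 6 lower and medians of -0.89, -0.95 and -1.004.

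Related genes that are no members were read from lists fixed by name. Of all genes, 6.06%, 7.16% and 6.79% were called lower in recurrences, TI-KM and TI-K primaries, and 6.4%, 7.69% and 6.7% higher. A count near such a share says nothing particular to its list. Of 33 other pan-endothelial genes measured, 8 were lower in recurrences, 11 in TI-KM primaries and 6 in TI-K primaries, with medians of -1.04, -1.32 and -1.02. Bmp6 was lower in all 3 (-2.64, -3.71 and -3.30). Icam1, an adhesion gene that inflamed endothelium and also epithelium and leukocytes use, was the 1 called higher, at 1.11 (SE 0.37, adjusted p = 0.0421), 1.86 (SE 0.35, adjusted p = 0.000359) and 1.85 (SE 0.36, adjusted p = 0.000562). Of 10 other VEGF pathway genes, 1, 2 and 1 were lower and 0, 1 and 1 higher; the ligand gene Vegfb had -1.59, -1.55 and -1.52 and was lower in all 3.

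Of 11 other angiopoietin, TIE and Notch vessel genes measured, 3, 3 and 2 were lower and 0 higher in recurrences, TI-KM and TI-K primaries. The shares of all genes were again 6.06%, 7.16% and 6.79% lower and 6.4%, 7.69% and 6.7% higher. Among 15 hypoxia response genes, 2, 2 and 3 were higher and 0, 1 and 1 lower, with the glycolysis regulator gene Pfkfb4 at 2.02, 2.48 and 2.46. Of 9 angiogenesis inhibitor genes 0 were called. Of 13 pericyte and smooth muscle genes 5, 2 and 2 were lower, with the smooth muscle actin gene Acta2 at -2.44, -2.19 and -2.56. Of 7 fibroblast genes 0, 4 and 0 were lower, while 8 of 8 epithelial genes were higher in each comparison.

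**Figure D3:**
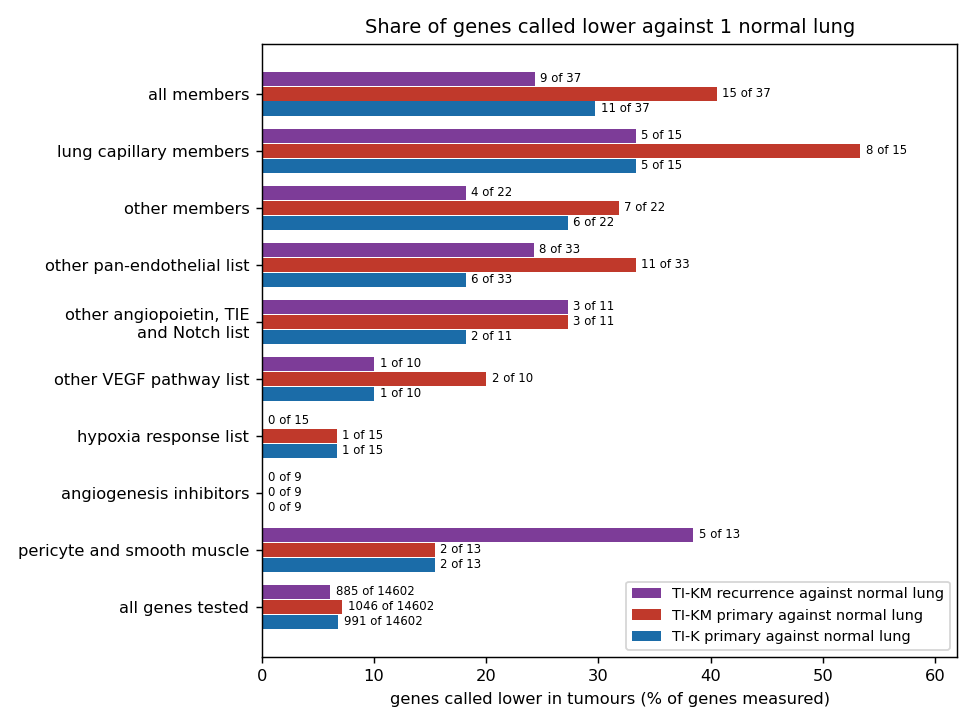
Percent of genes called lower against the normal lung (bars start at 0) in recurrences, TI-KM primaries and TI-K primaries, for the members, their capillary and other genes, and lists that share no gene with the members. The capillary genes stand at 8 of 15 in TI-KM primaries, above the 7.16% of all genes, and the angiogenesis inhibitors at 0 of 9.

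The counts against the normal lung depended on which arrays were used. The normal lung, whose 18S control was above 12000, was the reference for each choice. The remaining tumours, all below that limit, were thus compared with a lung above it. Their median array signals, 69.9 to 101.8, were also below the 110.6 of the lung, and those of high-18S tumours above it. The part of both in the counts was not tested. With the remaining arrays only, 12 members were lower in recurrences, 24 in TI-KM primaries and 22 in TI-K primaries, where 9.02%, 12.2% and 11.1% of all genes were called lower. With the high-18S arrays only, 7 were lower in recurrences and 9 in TI-KM primaries, where 4.88% and 5.8% of all genes were. With recurrences and the normal lung fitted without the other groups, 1 member, Gpihbp1, was called lower, where 1.94% of all genes were.

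Between tumour groups, few endothelial genes differed. Recurrences against TI-KM primaries, the comparison of relapsed with primary tumours of the same genotype, gave 0 of 37 members in limma, where 0.26% of all genes were called. An unadjusted p below 0.05 was found for 6 of the 37 members and for 1817 of all 14602 genes. The median change of the members was 0.17, beside 0.04 over all genes. The 3 smallest p-values were those of Cdh5 (0.60, SE 0.26, adjusted p = 0.341), Gpihbp1 (0.35, SE 0.16, adjusted p = 0.346) and Aplnr (-0.65, SE 0.30, adjusted p = 0.368). Kdr had 0.54 (95% interval -0.00 to 1.09), Pecam1 0.84 (0.05 to 1.64) and Vegfa -0.29 (-0.79 to 0.22), none of them called. With the sets as a block 0 members were called, where 0.705% of all genes were, and within the remaining arrays 0, where 0.0822% were. This change was tested for a difference between the 2 sets of arrays; limma called it for 0 of 37 members, and 0 had an unadjusted p below 0.05. It was called for 0 of all 14602 genes as well, so the count of members says nothing particular to them.

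TI-KM against TI-K primaries, the comparison of tumours with and without the Mad2 transgene, gave 1 of 37 members, Ace, where 8.01% of all genes were called and 2.51% were called lower. Ace encodes the enzyme that lung capillaries use to make angiotensin II. Its signals were 305, 496 and 678 in TI-KM primaries and 304, 1001 and 2112 in TI-K primaries, with a change of -0.90 (SE 0.25, adjusted p = 0.0289). The 5 highest TI-K values, 977 to 2112, all belonged to the high-number set, and the 3 in the remaining set, 304 to 817, overlapped the TI-KM primaries. Within the remaining arrays the change was 0.03 (SE 0.28), and with the sets as a block it was 0.00 (SE 0.30), where 0 genes were called. The high-number set held TI-K primaries alone, so both fits rested on the same 3 remaining TI-K primaries. They are not 2 separate checks. The call was also lost without TI-K replicate 1, 2, 3, 4 or 5 (-0.73 to -0.89), and the other probe set of Ace gave 0.22. Kdr (-0.35, SE 0.24), Cdh5 (0.18, SE 0.24), Pecam1 (-0.20, SE 0.35) and Vegfa (-0.01, SE 0.22) were not called.

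Recurrences against TI-K primaries gave 2 of 37 members, where 18.9% of all genes were called. Apln had signals of 392.4, 624 and 804.5 in recurrences and 218.5, 346 and 492.9 in TI-K primaries, with 4 of 6 recurrences above all TI-K primaries, and a change of 0.71 (SE 0.21, adjusted p = 0.0224). Aplnr, the gene of its receptor, had signals of 418, 689 and 1849 in recurrences and 523, 1847 and 2617 in TI-K primaries, and a change of -0.93 (SE 0.33, adjusted p = 0.0477). So ligand and receptor genes differed in opposite directions. Both differences shrank when the sets of arrays were taken into account, to 0.08 and -0.22 with the sets as a block (0 members called, 0.0959% of all genes) and to 0.17 and -0.05 within the remaining arrays (0 members, 0.13% of all genes). Here too both fits rested on the same 3 remaining TI-K primaries. The Apln call was lost without TI-K replicate 1 (0.62) or recurrence 2, 3 or 4 (0.61 to 0.65). The Aplnr call was lost without any 1 of TI-K replicates 1 to 5 or recurrences 1, 2, 3 and 6 (-0.75 to -0.89), and both calls were lost with the 3'/5' ratio as a covariate.

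Cdh5 had 0.78 (SE 0.29, adjusted p = 0.0543) in recurrences against TI-K primaries, just outside the threshold. It was called without TI-K replicate 2 (0.87) or recurrence 6 (0.91), with arrays scaled to a common median (0.68, adjusted p = 0.0293), with quantile normalization (0.83, adjusted p = 0.0205), with the mean of its probe sets (0.84, adjusted p = 0.0223), with these 2 groups fitted alone (0.78, adjusted p = 0.0318) and with number 76 averaged (0.78, adjusted p = 0.0475). Blocking on the sets of arrays gave 0.58 (adjusted p = 0.45) and the remaining arrays alone 0.83 (adjusted p = 0.243), neither called. Both of these fits again rested on the 3 remaining TI-K primaries. Pecam1 had 0.65 (SE 0.43), Kdr 0.20 (SE 0.29) and Vegfa -0.30 (SE 0.27), none of them called.

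**Figure D4:**
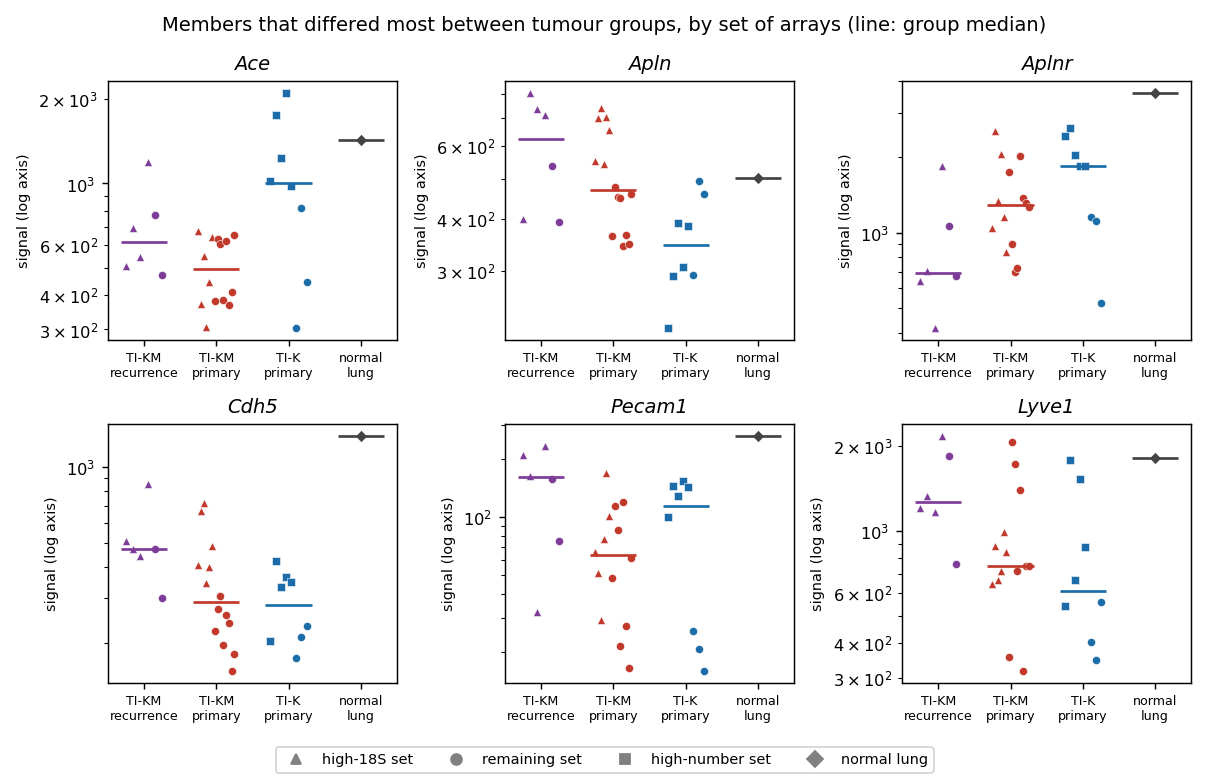
Signal of 6 genes in every array (log axis) by group, with the set of arrays as the symbol and the group median as a line. The squares, the high-number TI-K primaries, hold the 5 highest TI-K values of Ace, Aplnr and Pecam1, and the circles of TI-K primaries lie at 15.9 to 25.8 for Pecam1.

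Within a tumour group, the sets of arrays differed in endothelial genes as well. Among TI-K primaries, 10 of 37 members were lower and 1 was higher in the 3 remaining than in the 5 high-number arrays, where 16% of all genes were called; the 11 are named here after their values were seen. Pecam1 had 25.8, 20.7 and 15.9 in the remaining arrays against 99.3, 145, 129, 153 and 142 in the high-number arrays, a difference of -1.91 (adjusted p = 0.000977). Tie1 differed by -1.54, Ace by -1.46, Aplnr by -1.26, Sox17 by -1.22, Tek by -1.12, Flt1 by -0.85, Eng by -0.84, Plvap by -0.83 and Flt4 by -0.69. Car4 ran the other way, with 3112, 3062 and 1664 in the remaining arrays against 954, 644, 688, 1016 and 835 in the high-number arrays, a difference of 1.60 (adjusted p = 0.00346). For Pecam1 and for Car4 the 2 sets did not overlap. The log2 3'/5' ratio was 2.16 to 2.95 in the remaining and 1.64 to 2.42 in the high-number arrays, and its part in these differences was not tested.

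Among TI-KM primaries, 7 of 37 members were higher and 0 lower in the 6 high-18S than in the 8 remaining arrays, where 38.9% of all genes were called, so the share of members was below that of all genes. Cdh5 differed most, with 344, 446 and 715 (lowest, median and highest) in the high-18S arrays against 155, 232 and 307 in the remaining arrays, a difference of 1.05 (adjusted p = 0.000416). The 2 sets did not overlap for Cdh5, nor for Apln, with 541, 678 and 738.5 in the high-18S arrays against 344, 406 and 477 in the remaining arrays (0.65, adjusted p = 0.00266). Dll4, Nos3, Plvap, Flt4 and Robo4 were the other members called, with 0.78, 0.73, 0.68, 0.63 and 0.49. Median array signals were 121.7 to 169.8 in these high-18S arrays and 73.8 to 101.8 in these remaining arrays. Their part in the differences was not tested. Among recurrences 0 of 37 members differed between the sets, where 14.4% of all genes were called.

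Members tended to vary together among tumours within a set. Each was correlated with Cdh5 over the 13 remaining and the 10 high-18S tumour arrays, on log2 signals with group means removed, in 72 relations with permutation tests adjusted over all of them. All genes of an array share its normalization and RNA quality, so the correlations describe these arrays. The median Pearson r with Cdh5 was 0.40 in the remaining arrays, with 34 of 36 members positive, and 0.46 in the high-18S arrays, with 35 of 36 positive. Over all genes the median r was -0.01, with 49.4% positive, and 0.06, with 55.6% positive.

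Single relations mostly missed the threshold. In the remaining arrays 0 of 36 passed and 3 had an unadjusted p below 0.05: Pecam1 (r = 0.68), Plvap (0.68) and Flt1 (0.68). In the high-18S arrays Sox17 passed with both measures (r = 0.92, adjusted permutation p = 0.00576; Spearman rho = 0.98, adjusted permutation p = 0.0115) and had r = 0.86 without the 2 arrays farthest from the median of Cdh5. Its r in the remaining arrays was 0.31. Calcrl and Vegfc passed by rank and not by Pearson's r (rho = 0.85 and 0.92, adjusted permutation p = 0.0162 and 0.0293). The lowest r was that of Vegfa, -0.46, in the remaining arrays, where high-18S arrays gave it 0.06, and that of Pecam1, -0.06, in the high-18S arrays.

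**Figure D5:**
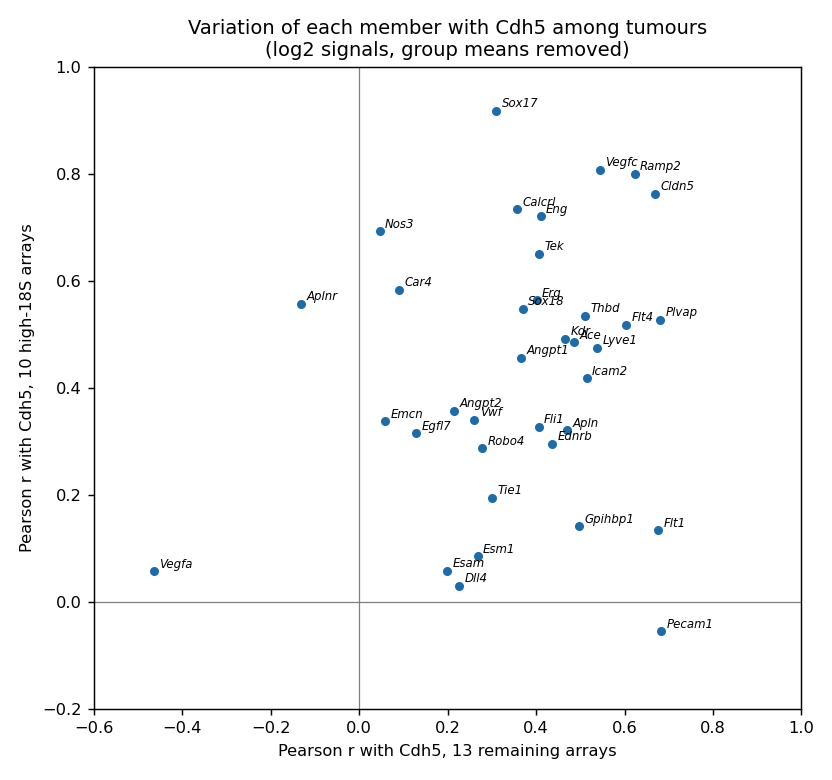
Pearson r of each of 36 genes with Cdh5 among tumours, in the 13 remaining arrays (horizontal) and the 10 high-18S arrays (vertical). Most genes lie in the upper right, Sox17 highest at 0.92 on the vertical axis, and Vegfa is farthest left at -0.46.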

How the data were processed

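Expression was measured on Affymetrix arrays, 1 for each of 28 tumours and 1 normal lung. Per the labels, total RNA was extracted with RNeasy and prepared by a 2-cycle protocol. The deposited values are intensity signals on a linear scale, 1 per probe set. The submitters' processing notes name MAS5, without a version. Although MOE430A 2.0 is the array named in the series text, 45101 probe sets were deposited. The precision is limited by the number of arrays.

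Probe sets were named from the platform annotation: 64 were controls, 34945 named 1 gene, 31932 of all passed the filter on dim signals (above the 40th percentile of the array in at least 6 arrays), and 14602 genes were tested. Of 66 probe sets of the members 59 passed. After adding 20, log2 values of all 29 arrays entered 1 limma fit (version 3.58.1, R 4.3.3 and the data.table package, version 1.17.8) with 4 groups and a variance trend, called at a Benjamini-Hochberg adjusted p below 0.05. Correlations used Python 3.11.15 with numpy 2.4.6, pandas 2.3.3 and 100000 permutations. The fit was tested on simulated data, drawn with the spread of the tumours for every array and without sets of arrays. It therefore could not test the spread assumed for the normal lung or the part of the sets.

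Members and lists were chosen with earlier results of these data known. Named with values were Pecam1, Cdh5, Kdr and Vegfa in every comparison, the 10 lower members with the smallest p and all higher members called against normal lung, the called members between tumour groups (or the 3 with the smallest p), and up to 2 called genes of each list; the other members were given with their changes so that all 38 are accounted for. Alternatives were 2 offsets, 2 scalings, 2 filters, 2 choices of probe set, no trend, 2 groups alone, the 3'/5' covariate, number 76 averaged, the sets of arrays, and leaving out each array.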

Additional observations from a re-analysis of the deposited data

Results flagged for a closer look

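Vwf, the von Willebrand factor gene, had 1 array far from the rest of its group: TI-K primary 8 had a signal of 1482, against 2999 to 4945 in the other 7 TI-K primaries. On the log2(signal + 20) scale, its gap to the nearest value, divided by the range of the group, was 0.584, above Dixon's 95% critical value for 8 samples. On the linear scale of these signals the same share was 0.438, below that value. On the log2 scale it was the only 1 of 74 pairs of gene and group tested, where chance would be expected to mark about 1 in 20.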

How the results depend on the processing

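Single genes kept their direction and their side of the threshold in 1298 of the values recomputed under alternatives; 12 passed it newly, 55 no longer passed and 21 changed sign. The cause of the following shifts was not tested. Against the normal lung, the remaining arrays alone gave 25 called members (24 lower) for TI-KM and 22 for TI-K primaries, the high-18S arrays alone 9 for TI-KM primaries, and 2 groups alone 1 for recurrences. For TI-KM against TI-K primaries the count was 2 with quantile normalization and with 2 groups alone, and 0 with the mean of all probe sets, the sets as a block and the remaining arrays. For recurrences against TI-K primaries it was 4 with quantile normalization, 1 without the filter or without the variance trend, and 0 with the 3'/5' covariate, the block and the remaining arrays. Leaving out each array gave 8 to 12 members called for recurrences, 14 to 15 for TI-KM and 10 to 12 for TI-K primaries against the normal lung. Between tumours it gave 0 to 0 for recurrences against TI-KM, 0 to 3 for TI-KM against TI-K (0 without TI-K 1, 2, 3, 4 or 5; 2 without TI-K 6 or 7 or TI-KM 8; 3 without TI-K 8 or TI-KM 13) and 0 to 4 for recurrences against TI-K (0 without TI-K 1 or recurrence 2 or 3; 4 without recurrence 6). Signs changed for TI-KM against TI-K primaries with the block (Ace 0.0010, Kdr 0.063, Pecam1 0.86) and within the remaining arrays (Ace 0.029, Kdr 0.0054, Pecam1 0.84). Vegfa, at -0.01 in that comparison, had 0.019 with quantile normalization, 0.18 with the mean of its probe sets and -0.12 to 0.053 without single arrays; with the mean of its probe sets it had 0.073 in recurrences against TI-KM and 0.25 against TI-K primaries. No paired analysis was possible because the replicate numbers give an order within each group and link no samples across groups. Dim signals limit Pecam1, Tie1 and Prox1, and 1 normal array limits every comparison with it.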
